A study of Mus musculus with 8 samples.

Results

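The genes described here are 40 regulators of pre-mRNA splicing, taken as a named list from the 16647 gene rows of the table and all present in it. They were grouped by family: the 2 epithelial splicing regulatory proteins (Esrp1, Esrp2), 5 regulators linked to mesenchymal cells (Rbfox2, Mbnl1, Mbnl2, Qk, Celf1), 2 polypyrimidine tract binding proteins (Ptbp1, Ptbp3), 12 SR proteins and their relatives (Srsf1 to Srsf7, Srsf9 to Srsf11, Tra2a, Tra2b), 13 hnRNP proteins and 6 other factors (Rbm25, Rbm39, Khdrbs1, Sf3b1, U2af1, U2af2). The samples were Tri-PyMT cells, cultured cells from a mammary tumour of a mouse carrying 3 transgenes. MMTV-PyMT drives the polyoma middle T oncogene in mammary epithelium, Fsp1-cre expresses Cre recombinase from the promoter of Fsp1 (S100a4), and Rosa26mT/mG switches a cell permanently from a red to a green fluorescent protein once Cre has acted. The RFP+ and GFP+ cells therefore share all 3 transgenes and differ by the reporter colour on which they were sorted, which records past Cre activity and not the state of a cell when it was collected. Drop-seq, which tags the poly(A) RNA of single cells with cell barcodes, gave 2 libraries of each population, each read in 2 lanes that the table pools.

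Splicing regulators bind exons or the introns beside them and decide which exons are kept in the mature RNA. In epithelial cells ESRP1 and ESRP2 maintain the epithelial isoforms of genes such as Fgfr2, Cd44, Ctnnd1 and Enah, while RBFOX2, MBNL and QK proteins promote many of the exon choices seen in mesenchymal cells. SR proteins mostly promote exon inclusion and hnRNP proteins often oppose it, so a cell's isoforms reflect a balance of both. A count per gene, as measured here, gives the amount of each regulator's RNA but not the isoforms that it makes.

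The 4 libraries held 7390 cells after filtering, with 2550319 to 3081009 counts per library and a median of 1166 to 1358 counts per cell, and no cell barcode occurred in more than 1 library. The vimentin gene Vim measured 1947 and 1837 CPM (counts of a gene per 1000000 counts of the library) in the RFP+-labelled libraries, against 3187 and 3315 in the GFP+-labelled ones. The epithelial gene Epcam measured 372 and 389 against 221 and 214 CPM, so both sets of cells expressed both markers. The reporter rows went against the labels: the GFP row measured 612 and 590 CPM in the RFP+-labelled libraries and 99.7 and 104 CPM in the GFP+-labelled ones, and the RFP row measured 132 and 137 against 2943 and 3053 CPM. S100a4, whose promoter drives the Cre, measured 648 and 676 CPM in the RFP+-labelled libraries against 1843 and 2114 CPM in the GFP+-labelled ones. All directions below are those of the labels as deposited, and every difference between the populations would change sign if the labels were exchanged. Lyz2 and Alas2, defining genes of macrophages and erythroid cells, were at 0 counts in all 4 libraries, Ptprc had 0 to 2 counts and 2 endothelial genes together 0 to 2. The 6 immune genes of the table together had 32 and 37 counts in the RFP+-labelled libraries and 18 and 21 in the GFP+-labelled ones, and 5 fibroblast genes 26 and 17 against 50 and 47. Most of the immune counts were of Itgam (16 and 30 against 12 and 13) and Cd68 (13 and 6 against 6 and 7). Mitochondrially encoded genes took 0.664% and 0.644% of counts against 0.403% and 0.378%. The part of these in the differences below was not tested. Libraries were the replicates. Whether each came from its own culture is not in the labels, so the p-values speak of the spread among these 4 libraries, which may be technical.

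The microRNAs of the miR-200 family are markers of the epithelial state, and Qk is a known target of them. They were not measured, since the libraries hold poly(A) RNA, but their sequences allow the 3′ UTRs of the 40 genes to be searched for matches. The 5 mature mouse sequences (RefSeq, GRCm38.p6) are shown with the seed, bases 2 to 8, in capitals, and fall into 2 groups by their seed.
miR-141-3p: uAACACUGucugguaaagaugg
miR-200a-3p: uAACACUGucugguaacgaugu
miR-200b-3p: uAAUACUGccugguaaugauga
miR-200c-3p: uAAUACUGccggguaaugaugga
miR-429-3p: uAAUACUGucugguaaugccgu
The sites searched were CAGTGTT for the first seed and CAGTATT for the second, on the strand of the transcript in the longest coding transcript of GENCODE M21. Qk, an RNA-binding protein that promotes exon inclusion and circular RNAs in mesenchymal cells, held the largest number among the 40 genes, 3 matches to each seed in a 3′ UTR of 7014 bases. They are shown with the 7 matching bases in capitals.
Qk site 1: accgtcttCAGTGTTagcccaaa
Qk site 2: ccgcatcaCAGTGTTcagtgact
Qk site 3: aacagtacCAGTATTtgatccag
Qk site 4: ttagttgaCAGTGTTttgagtca
Qk site 5: ttggttctCAGTATTatcactct
Qk site 6: tttcctgaCAGTATTatgtaatt
Rbfox2 held 2 matches to the second seed, Mbnl1 held 1 match to the first, Celf1 held 3 in all, and no match was found in the 3′ UTRs of Mbnl2 or Esrp2. Esrp1, itself an epithelial gene, held 1 match to each seed.
Rbfox2 site 1: tctgttaaCAGTATTtcttgtgt
Rbfox2 site 2: agaccataCAGTATTcattgggt
Mbnl1 site: tatttcttCAGTGTTattgtttc
Esrp1 site 1: gcagcgctCAGTGTTtagcaccg
Esrp1 site 2: ccagagtgCAGTATTtggcacta
Of the 40 regulators 17 (42.5%) held a match to either seed, against 29.4% of 13398 genes of the table with a 3′ UTR, whose 3′ UTRs were shorter (median 1110 bases against 1506). A match is a string of letters and was not shown to be bound.

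**Figure D1:**
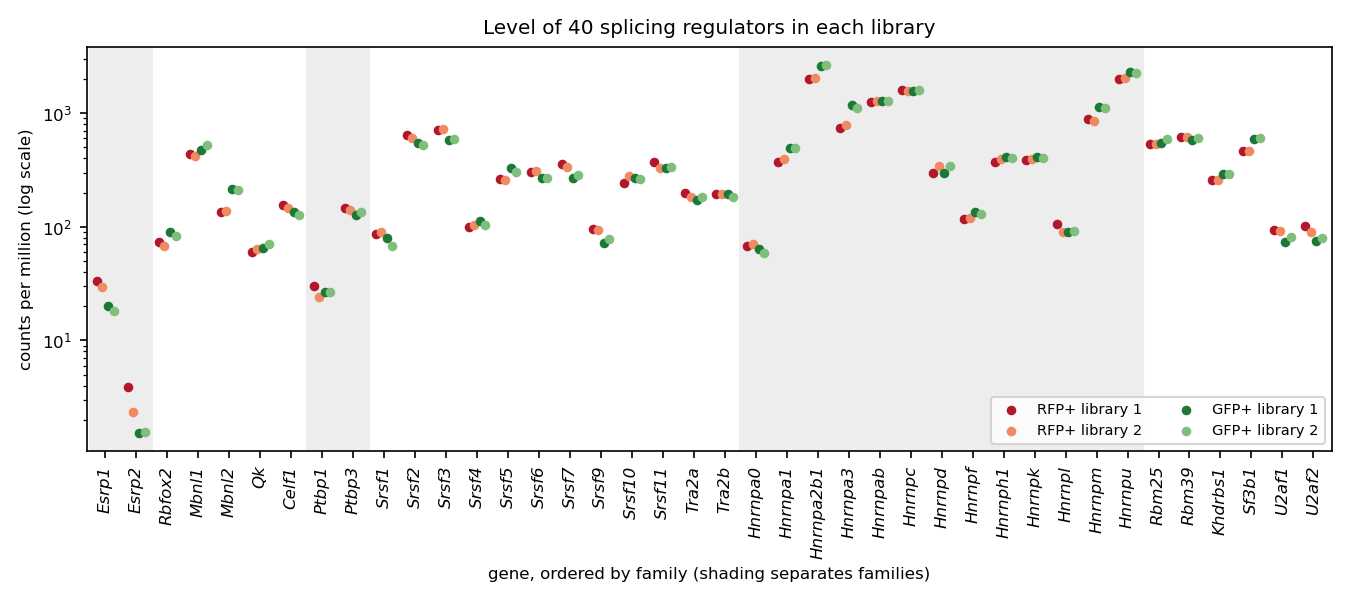
CPM (log scale) of the 40 splicing regulators in each of the 4 libraries, with genes ordered by family along the x axis and shading separating families. Esrp2, at 1.54 to 3.89 CPM, lies at the bottom, and Hnrnpa2b1, at 2000 to 2630 CPM, lies at the top.

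The 40 regulators together took 1.69% of all counts in both RFP+-labelled libraries and 1.84% and 1.85% in the GFP+-labelled ones. The hnRNP genes made up most of this, with 10155 and 10329 CPM in the RFP+-labelled libraries and 11892 and 11902 CPM in the GFP+-labelled ones. The SR genes summed to less in the GFP+-labelled libraries, with 3559 and 3508 CPM against 3218 and 3187 CPM. Per kilobase of the longest coding transcript, Hnrnpa2b1, which binds A- and G-rich RNA and moves it within the cell, was the highest in both populations (1167 and 1508 CPM per kb), followed by Hnrnpc and Hnrnpab. This order depends on the division by length. By counts over all libraries Hnrnpu (23870 counts, 7640 bases) came next after Hnrnpa2b1 (25649), ahead of Hnrnpc (17728). Whether counts of these libraries scale with transcript length was not tested, so values per kilobase are not measures of abundance. Esrp2 was the lowest (0.882 and 0.439 CPM per kb), and Esrp1, Qk and Ptbp1 were the next lowest, at 4.92 to 8.51 CPM per kb. In bulk sums of this kind, fewer cells expressing a gene and less RNA per cell cannot be told apart.

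Between the populations, 39 of the 40 regulators were abundant enough to be tested, at 10 CPM or more in either population. Counts summed per library were compared with edgeR's quasi-likelihood test, and a gene was called where its p-value, adjusted over all 7596 genes tested by the Benjamini-Hochberg method, was under 0.05. In the GFP+-labelled libraries, 10 regulators were higher, against 15.7% of all genes tested, and 9 were lower, against 14.8% of all genes. These are 25.6% and 23.1% of the 39, but abundant genes are called more often. Among the 3496 genes of at least 50 CPM, 24.0% were called higher and 23.4% lower, and 29.7% and 24.3% of the 37 regulators among them. The share of regulators called was thus close to that of all genes above that level. The median log2 fold, GFP+ over RFP+, was −0.02 over the 39 regulators and 0.00 over all genes tested.

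Esrp1 (chr4:11331933-11386783, GRCm38, minus strand), which keeps epithelial exons in the mature RNA, had the largest fall of the 39. It measured 33.1 and 29.4 CPM in the RFP+-labelled libraries and 20.01 and 18.04 CPM in the GFP+-labelled ones, with 102, 88, 52 and 46 counts. Both GFP+-labelled libraries lay below both RFP+-labelled ones, but the share of all genes separated in this way was not counted. The means were 31.3 ± 2.59 and 19.0 ± 1.4 CPM (SD, n = 2 libraries each), and the log2 fold was −0.73 ± 0.18 (SE; adjusted p = 0.00161, edgeR). With DESeq2 the log2 fold was −0.73 and the adjusted p 0.11, so this call rested on the test. Esrp2, its close relative, had 12 and 7 counts in the RFP+-labelled libraries and 4 in each of the GFP+-labelled ones, 27 counts in all, and was too low to test. The last 500 bases of Esrp2 overlap Nfatc3 on the opposite strand, a gene with 153 counts, so reads of both genes may not have been kept apart.

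Few cells held a count of either ESRP gene. With each cell thinned to 1000 counts, Esrp1 was counted in 3.37% of 1545 cells (95% exact Clopper-Pearson interval 2.52% to 4.39%) and 2.81% of 1423 cells (2.02% to 3.81%) of the RFP+-labelled libraries. In the GFP+-labelled libraries it was counted in 1.97% of 1419 cells (1.32% to 2.84%) and 1.46% of 1233 cells (0.867% to 2.3%). The intervals cover counting error only. Both GFP+ values lay below both RFP+ values, and the unthinned values, 4.85%, 4.16%, 3.26% and 2.5%, had the same order. Esrp2 was counted in 5, 3, 3 and 2 of the thinned cells, which shows no order at this depth. No cells known to lack these genes were part of the data, so the share that free RNA would give was not measured.

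Mbnl2 (chr14:120275669-120431697, plus strand), a muscleblind protein that sets exon choices of differentiated cells, had the largest rise. It measured 134 and 139 CPM in the RFP+-labelled libraries and 216 and 210 CPM in the GFP+-labelled ones. The groups did not overlap, but Mbnl2 was named as the largest rise, so this adds nothing to its call. The share of all genes separated in this way was not counted. The means were 136 ± 3.17 and 213 ± 4.07 CPM (SD, n = 2 each), and the log2 fold was 0.63 ± 0.08 (adjusted p = 1.19e-08), a ratio of 1.55. It was counted in 12.3% and 12.6% of thinned cells of the RFP+-labelled libraries and in 19.0% and 18.2% of the GFP+-labelled ones. Its relative Mbnl1, with 437 and 418 against 473 and 519 CPM, rose by a log2 fold of 0.20 ± 0.06 (adjusted p = 0.00899, edgeR). Rbfox2, which binds UGCAUG and promotes mesenchymal exons when it sits downstream of them, measured 73.7 and 67.3 against 90.5 and 83.5 CPM, a log2 fold of 0.29 ± 0.11 (adjusted p = 0.0329, edgeR). Rbfox2 was not called without library 2 of the RFP+ label (0.24, adjusted p = 0.177) or library 1 of the GFP+ label (0.24, adjusted p = 0.209), nor Mbnl1 without library 2 of the GFP+ label (0.12, adjusted p = 0.231). With DESeq2 Mbnl2 was called (adjusted p = 2.06e-05), and Mbnl1 (0.179) and Rbfox2 (0.357) were not.

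Of the other regulators linked to mesenchymal cells, Qk was not called and Celf1 fell. Qk measured 60.05 and 64.2 CPM in the RFP+-labelled libraries and 65.05 and 71.0 in the GFP+-labelled ones, a log2 fold of 0.12 ± 0.12 (adjusted p = 0.471, edgeR). Its values in the 4 libraries lay close together, and no difference was detectable. Celf1, a CUG-binding protein that antagonises MBNL proteins on shared exons and also destabilises RNA, measured 156 and 146 against 134 and 127 CPM, a log2 fold of −0.22 ± 0.08 (adjusted p = 0.039, edgeR). The Celf1 call was lost without library 1 of the RFP+ label (−0.17, adjusted p = 0.224), without library 1 of the GFP+ label (−0.25, adjusted p = 0.0799), without library 2 of that label (−0.19, adjusted p = 0.183) and with DESeq2 (adjusted p = 0.362).

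The PTB genes encode repressors of exons flanked by pyrimidine tracts. Ptbp1 measured 29.9 and 24.1 against 26.6 and 26.7 CPM, with both GFP+ values between the RFP+ values (log2 fold −0.04 ± 0.17, adjusted p = 0.898, edgeR). Ptbp3 measured 147 and 140 against 126 and 134 CPM (log2 fold −0.15 ± 0.08, adjusted p = 0.168). Neither was called.

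Of the 12 SR genes, 5 fell (Srsf2, Srsf3, Srsf6, Srsf7, Srsf9), 1 rose (Srsf5) and 6 were not called, with a median log2 fold of −0.16. These calls are 41.7% of the 12 lower and 8.33% higher, beside 14.8% and 15.7% of all genes, and 23.4% and 24.0% of genes of at least 50 CPM. SR proteins bind exonic enhancers and help recruit the spliceosome to nearby splice sites. Srsf9 showed the largest fall, from 95.4 and 94.0 to 71.2 and 77.6 CPM (log2 fold −0.36 ± 0.10, adjusted p = 0.00604). Srsf7, which also acts in polyadenylation and RNA export, fell from 356 and 338 to 271 and 285 CPM (−0.33 ± 0.06, adjusted p = 7.47e-05). Srsf3, the smallest SR protein and also an export adaptor, fell from 704 and 722 to 578 and 593 CPM (−0.30 ± 0.05, adjusted p = 3.83e-05). For each of the 3 genes both GFP+-labelled libraries lay below both RFP+-labelled ones. They were named as the largest called falls, so this order adds nothing to the calls. Srsf5 went the other way, from 265 and 257 to 327 and 303 CPM (0.26 ± 0.06, adjusted p = 0.002). Srsf2 and Srsf6 fell by 0.24 and 0.20 on the log2 scale. Without library 1 of the GFP+ label, Srsf5 (0.21, adjusted p = 0.0516), Srsf6 (−0.19, adjusted p = 0.0763) and Srsf9 (−0.29, adjusted p = 0.091) were not called, nor was Srsf6 without library 2 of the RFP+ label (−0.18, adjusted p = 0.08). DESeq2 called Srsf2, Srsf3 and Srsf7 alone of the 12 (adjusted p = 0.0316, 0.00312 and 0.0118). The SR genes that were not called, Srsf1, Srsf4, Srsf10, Srsf11, Tra2a and Tra2b, had log2 folds from −0.26 to 0.07, with Srsf1 nearest to the threshold (adjusted p = 0.0547). Srsf3 has a near-identical copy with its own row, Gm12355, which held 118 counts beside 7341 for Srsf3, and Srsf2 overlaps Mettl23 (1041 counts) on the opposite strand at its 3′ end, beside 6556 counts of its own.

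Of the 13 hnRNP genes, 5 rose (Hnrnpa1, Hnrnpa2b1, Hnrnpa3, Hnrnpm, Hnrnpu), 0 fell and 8 were not called, which is 38.5% of the 13 higher, beside 15.7% of all genes and 24.0% of genes of at least 50 CPM. The hnRNP median log2 fold was 0.08. Hnrnpa3 rose from 743 and 779 to 1167 and 1103 CPM (0.56 ± 0.05, adjusted p = 2.31e-11). Hnrnpa2b1 rose from 2000 and 2032 to 2581 and 2630 CPM (0.36 ± 0.05, adjusted p = 1.57e-07). Hnrnpa1, a repressor of exon inclusion that competes with SRSF1, rose from 375 and 393 to 494 and 497 CPM (0.36 ± 0.06, adjusted p = 7.29e-06). These 3 genes of the A/B group had no overlap of libraries between the populations. They were named as the largest called rises of the family, so this adds nothing to the calls. Hnrnpm, known as a competitor of ESRP1 at GU-rich motifs in breast cancer cells, rose from 886 and 845 to 1129 and 1102 CPM (0.35 ± 0.05), and Hnrnpu, a chromatin-associated RNA-binding protein, rose by 0.17 ± 0.05. Hnrnpu was not called without library 1 of the RFP+ label (0.15, adjusted p = 0.071) or with DESeq2 (adjusted p = 0.0685), which called the other 4. The hnRNP genes not called included some of the most abundant: Hnrnpc, which binds uridine tracts, measured 1594, 1568, 1555 and 1603 CPM, and Hnrnpab 1241, 1273, 1272 and 1277 CPM. Their log2 folds were −0.02 ± 0.05 and 0.01 ± 0.05, smaller than their SE, and no difference was detectable. Among annotated transcripts Hnrnpa3 has 26 near-identical copies, of which 4 have rows of their own with 23 counts in all, and Hnrnpa1 has 8. Reads of the copies could have been split from or added to these genes. Srsf5, Hnrnpm, U2af1 and U2af2, also called, have 1 to 3 such copies, none with a row of its own.

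Sf3b1, the branch point binding subunit of the U2 snRNP, rose from 468 in both RFP+-labelled libraries to 588 and 606 CPM (0.34 ± 0.06, adjusted p = 8.06e-06). Both subunits of the U2AF dimer, which recognises the 3′ splice site, fell. U2af1 went from 94.45 and 91.7 to 73.1 and 80.8 CPM (−0.29 ± 0.10, adjusted p = 0.0283), and U2af2 from 102 and 89.0 to 75.4 and 80.0 CPM (−0.31 ± 0.10, adjusted p = 0.0193). Neither U2AF call held without library 1 of the GFP+ label (U2af1 −0.21, adjusted p = 0.247; U2af2 −0.26, adjusted p = 0.138) or library 1 of the RFP+ label (−0.27, adjusted p = 0.108; −0.21, adjusted p = 0.227). U2af1 was also not called without library 2 of the RFP+ label (−0.30, adjusted p = 0.0685), and DESeq2 called Sf3b1 only. Rbm25 (0.07), Rbm39 (−0.07) and Khdrbs1, which encodes SAM68 (0.16, adjusted p = 0.0596), were not called.

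**Figure D2:**
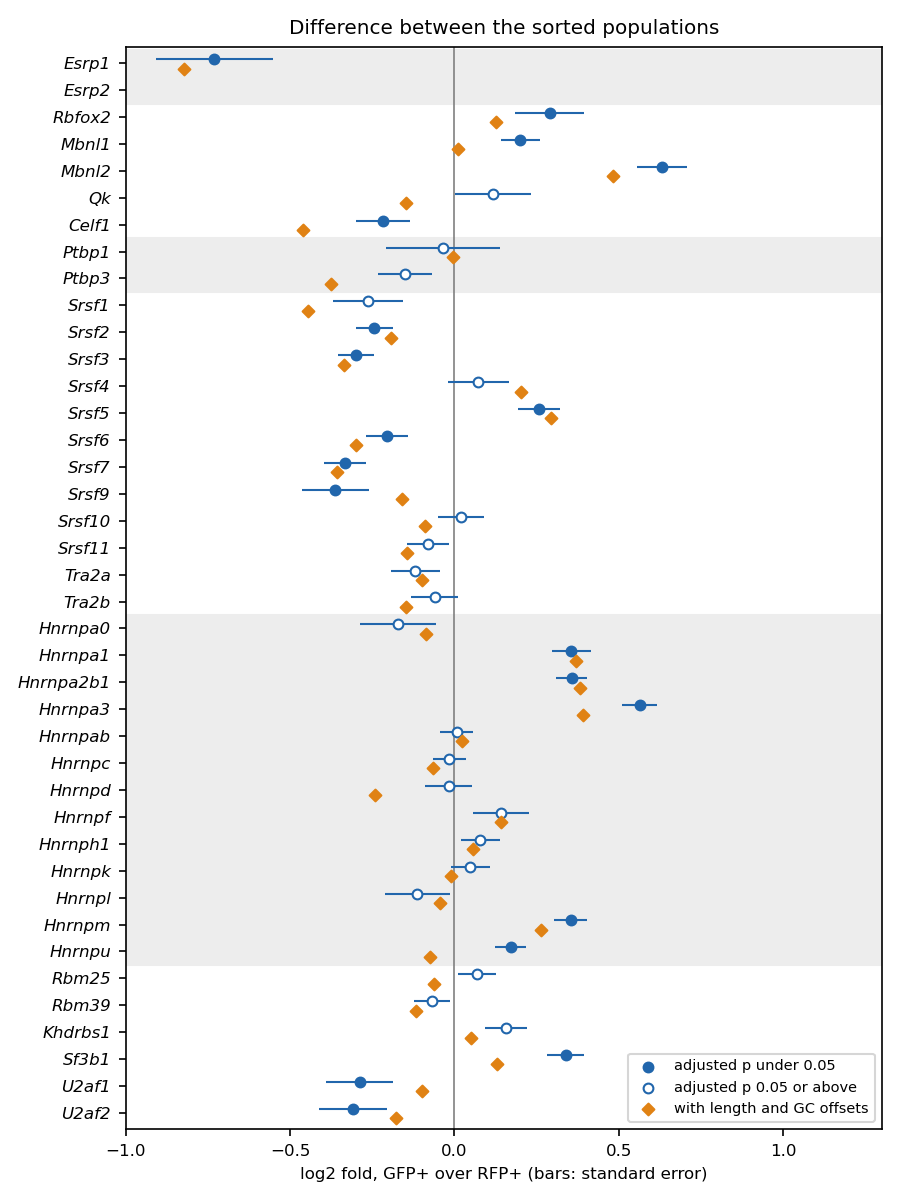
Log2 fold of each regulator, GFP+-labelled libraries over RFP+, by family (circles with SE bars; filled where the adjusted p was under 0.05), and the same with offsets for transcript length and GC content (diamonds). Esrp1 lies farthest to the left and Mbnl2 farthest to the right, and Hnrnpu crosses 0 with the offsets.

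Transcript length moved with the difference between the populations, and it differs between the families. Over 7244 genes tested with a known length, the median log2 fold rose over 5 equal bins, from −0.16 in the shortest genes to 0.21 in the longest. Spearman's rho between length and log2 fold was 0.36 over those genes and 0.25 over the 39 regulators, as a description across genes that share the same 4 libraries. The median length was 6907 bases for the regulators linked to mesenchymal cells, 2511 for the SR genes and 2679 for the hnRNP genes. The 10 regulators that rose had a median length of 4851 bases and the 9 that fell 2403 bases. Of the 10 regulators in the longest bin, 5 rose and 1 fell, beside 30.3% of all genes of that bin called higher and 5.24% called lower.

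With offsets for length and GC content in the same fit, 6 regulators were higher and 9 lower, in place of 10 and 9, against 11.7% and 13.4% of all genes. These offsets used the longest coding transcript of each gene. Rbfox2 (0.13, adjusted p = 0.426), Mbnl1 (0.01, adjusted p = 0.93) and Sf3b1 (0.13, adjusted p = 0.0963) no longer passed, nor did Srsf9, U2af1 and U2af2, and Hnrnpu changed sign (−0.07, adjusted p = 0.306). Mbnl2 (0.48), Hnrnpa3 (0.39), Hnrnpa2b1 (0.38), Hnrnpa1 (0.37), Srsf5 (0.29) and Hnrnpm (0.26) still passed. Esrp1 (−0.82), Celf1 (−0.46), Srsf7 (−0.36), Srsf3 (−0.33), Srsf6 (−0.30) and Srsf2 (−0.19) also still passed. Srsf1 (−0.44), Ptbp3 (−0.38) and Hnrnpd (−0.24), with transcripts of 5362, 6855 and 6811 bases, were called lower with these offsets and not without them. Srsf1 was also called at a filter of 50 CPM and without library 1 of the GFP+ label, and Ptbp3 in cells thinned to 1000 counts. With offsets from the median length of each gene's transcripts, 7 regulators were higher and 8 lower, against 12.2% and 14.2% of all genes. Rbfox2 was then called (0.36, adjusted p = 0.00732), as were Srsf1 and Ptbp3, while Hnrnpd was not (−0.06, adjusted p = 0.583), so the values of Rbfox2 and Hnrnpd depended on the length chosen. Mbnl1, Sf3b1, Srsf9, Hnrnpu, U2af1 and U2af2 passed with neither. Whether the relation with length is of the cells or of the libraries cannot be told apart, since each library holds 1 population.

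**Figure D3:**
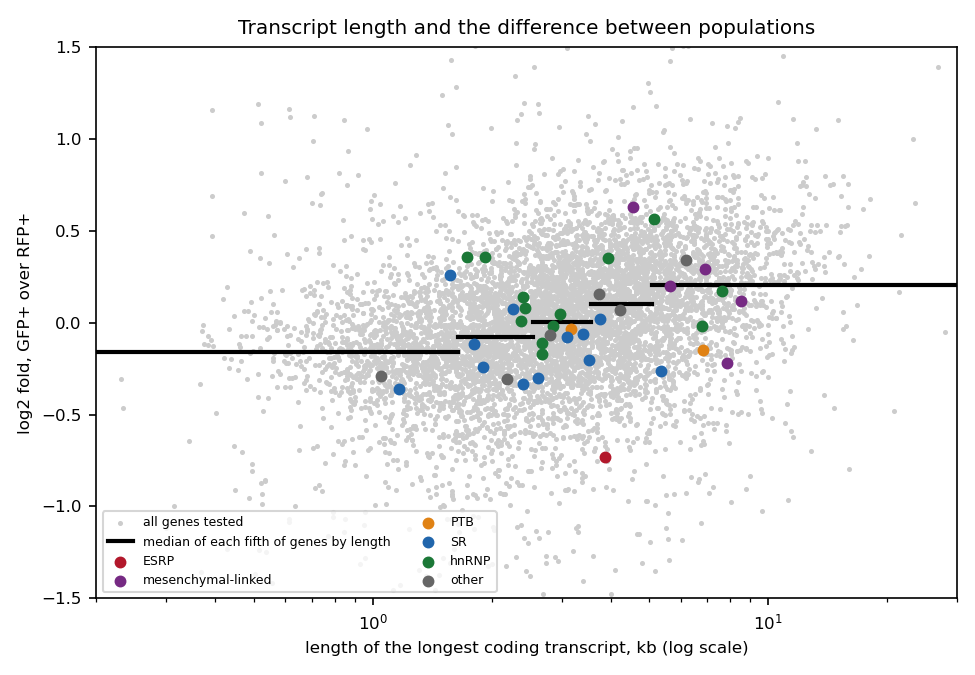
Log2 fold, GFP+-labelled libraries over RFP+, against the length of the longest coding transcript in kilobases (log scale), for all genes tested (grey; 62 genes outside the axes, none of them a regulator) and the 39 regulators by family (colours). Black bars give the median of each of 5 equal bins of genes by length and rise from −0.16 to 0.21.

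The second comparison asked whether the regulators also vary with the epithelial or mesenchymal state of cells within 1 library, where sort and library cannot differ. Thinned cells were ranked within each library by the counts of 37 mesenchymal genes relative to those of 43 epithelial genes, none of them a regulator. Each library was split by rank into 3 equal parts, the epithelial end, the middle and the mesenchymal end, and the 2 ends were compared with the library as a block. The 2 ends differed strongly in the genes that defined them. Summed epithelial CPM were 3.09 and 3.19 times higher in the epithelial end in the RFP+-labelled libraries, and 7.18 and 6.91 times in the GFP+-labelled ones, against 1.95 times between the populations. Summed levels of G2/M genes and median counts per cell varied little, at 4363 to 4879 CPM and 1372 to 1543 counts over the 2 ends.

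Within libraries, 1 regulator of 39 was called lower in the mesenchymal end (Esrp1), against 1.37% of all 7603 genes tested, and 1 was called higher (Mbnl2), against 1.14% of all genes. The median log2 fold, mesenchymal over epithelial end, was 0.05 over the 39 regulators and 0.00 over all genes. Both genes went the same way as between the populations.

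Esrp1 measured 53.1 and 49.0 CPM in the epithelial ends of the RFP+-labelled libraries and 9.83 and 6.41 CPM in their mesenchymal ends. In the GFP+-labelled libraries it measured 36.4 and 29.5 CPM in the epithelial ends and 12.9 and 7.4 CPM in the mesenchymal ends. The level was lower in the mesenchymal end in 4 of 4 libraries, and every mesenchymal end lay below every epithelial end of either population. The log2 fold was −2.18 ± 0.34 (adjusted p = 1.51e-07, edgeR with library as a block), with an interval from −2.84 to −1.51. The middle parts differed by population, with 41.3 and 29.9 CPM in the RFP+-labelled libraries and 10.7 and 7.4 CPM in the GFP+-labelled ones. In the RFP+ libraries alone the log2 fold was −2.60 ± 0.43 (adjusted p = 0.00265), and in the GFP+ libraries alone −1.65 ± 0.53 (adjusted p = 0.0984). The test of the difference between these 2 values gave 0.95 ± 0.75 (adjusted p = 0.902), so they were not shown to differ. These values rest on few counts: 27, 23, 17 and 12 in the epithelial ends and 5, 3, 6 and 3 in the mesenchymal ends. Esrp2 had 4, 2, 1 and 1 counts in the epithelial ends and 1, 1, 0 and 0 in the mesenchymal ends, too few to compare.

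Mbnl2 measured 122, 121, 180 and 160 CPM in the epithelial ends and 151, 158, 238 and 266 CPM in the mesenchymal ends of the 2 RFP+-labelled libraries and the 2 labelled GFP+. It was higher in the mesenchymal end in 4 of 4 libraries, with a log2 fold of 0.47 ± 0.12 (adjusted p = 0.00853). The epithelial ends of both GFP+ libraries lay above the mesenchymal ends of both RFP+ libraries. The nearest of these, 160 CPM (65 counts) and 158 CPM (74 counts), both of library 2, were too close to order at these counts. Mbnl2 was no longer called without library 1 of the GFP+ label (0.49, adjusted p = 0.064) or without library 2 of that label (0.38, adjusted p = 0.189). With DESeq2 the log2 fold was 0.47 and the adjusted p 0.905.

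**Figure D4:**
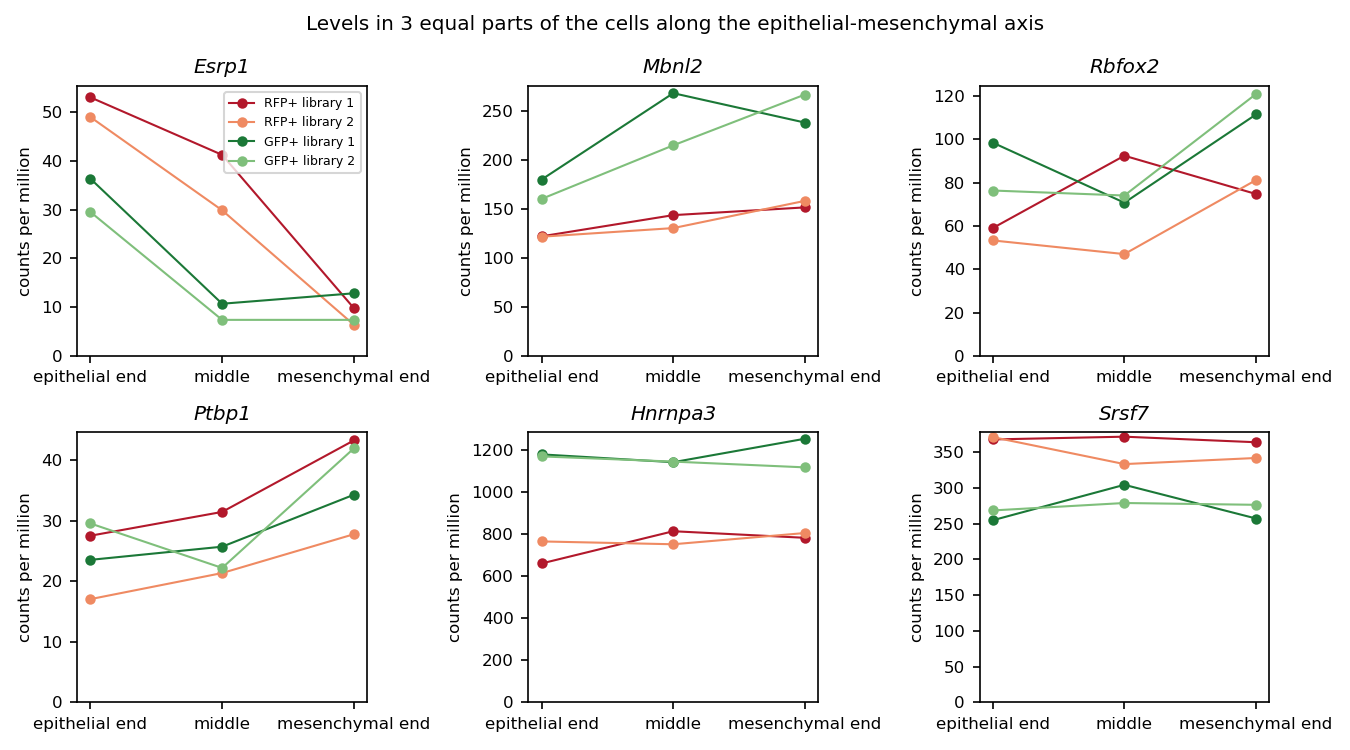
CPM of 6 regulators in the epithelial end, the middle and the mesenchymal end of thinned cells, 1 line per library (axis genes left out of the total). Esrp1 is lower and Mbnl2 higher in the mesenchymal end than in the epithelial end in all 4 libraries, while Hnrnpa3 and Srsf7 are separated by population in all 3 parts.

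Rbfox2 and Mbnl1 were also higher in the mesenchymal end in 4 of 4 libraries, but did not pass the adjusted threshold. The same held for Ptbp1, Srsf5, Hnrnpa1 and Hnrnpu, of other families. Srsf1 was lower in the mesenchymal end in 4 of 4 libraries and was not called. It went from 88.5, 83.1, 79.2 and 66.5 CPM to 55.0, 76.9, 64.3 and 59.2 CPM. The share of all genes that went 1 way in 4 of 4 libraries was not counted. Rbfox2 measured 59.0, 53.3, 98.4 and 76.3 CPM in the epithelial ends and 74.7, 81.2, 111 and 121 CPM in the mesenchymal ends, with a log2 fold of 0.43 ± 0.17 (adjusted p = 0.219, edgeR). For Mbnl1 the log2 fold was 0.19 ± 0.08 (adjusted p = 0.197). Ptbp1, level between the populations, had a log2 fold of 0.59 ± 0.28 along the axis (adjusted p = 0.331), from 27.5, 17.1, 23.5 and 29.5 CPM to 43.2, 27.8, 34.3 and 41.9 CPM. At 8 to 22 counts per end, a difference of that size was not detectable at this depth. Qk (0.11 ± 0.19), Celf1 (0.01 ± 0.13) and Ptbp3 (0.01 ± 0.14) had values close to 0 with intervals that span it.

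The SR and hnRNP genes that were called between the populations were not called along the axis. Of these, Srsf5, Hnrnpa1 and Hnrnpu were still higher in the mesenchymal end in 4 of 4 libraries, as between the populations. Srsf5 measured 263, 222, 297 and 300 CPM in the epithelial ends and 295, 254, 373 and 343 CPM in the mesenchymal ends. The other called genes of these families did not go 1 way in all 4 libraries. Hnrnpa3 measured 661, 765, 1179 and 1169 CPM in the epithelial ends and 782, 805, 1253 and 1117 CPM in the mesenchymal ends, a log2 fold of 0.08 ± 0.05. Its interval, −0.02 to 0.19, lay below its log2 fold of 0.56 between the populations. For Srsf7 the log2 fold was −0.02 ± 0.09 (interval −0.20 to 0.15), for Srsf3 0.09 ± 0.06 (−0.04 to 0.22) and for Hnrnpm 0.02 ± 0.05 (−0.08 to 0.13). Sf3b1, higher in the GFP+-labelled libraries, had a log2 fold of −0.16 ± 0.07 along the axis (adjusted p = 0.279). Hnrnpa2b1, with the smallest SE of the 39, had a log2 fold of 0.10 ± 0.04 (adjusted p = 0.161). Over the 12 SR genes log2 folds ran from −0.32 to 0.23 and over the 13 hnRNP genes from −0.21 to 0.14. The 2 comparisons use the same cells, and the difference between them was not tested. Counting noise in the ranking also blurs the 2 ends, to an extent that was not measured. No regulator was shown to differ between the populations in its change along the axis (0 of 39 at an adjusted p under 0.05 in edgeR's interaction test, and 1, Hnrnpc, at an unadjusted p under 0.05).

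**Figure D5:**
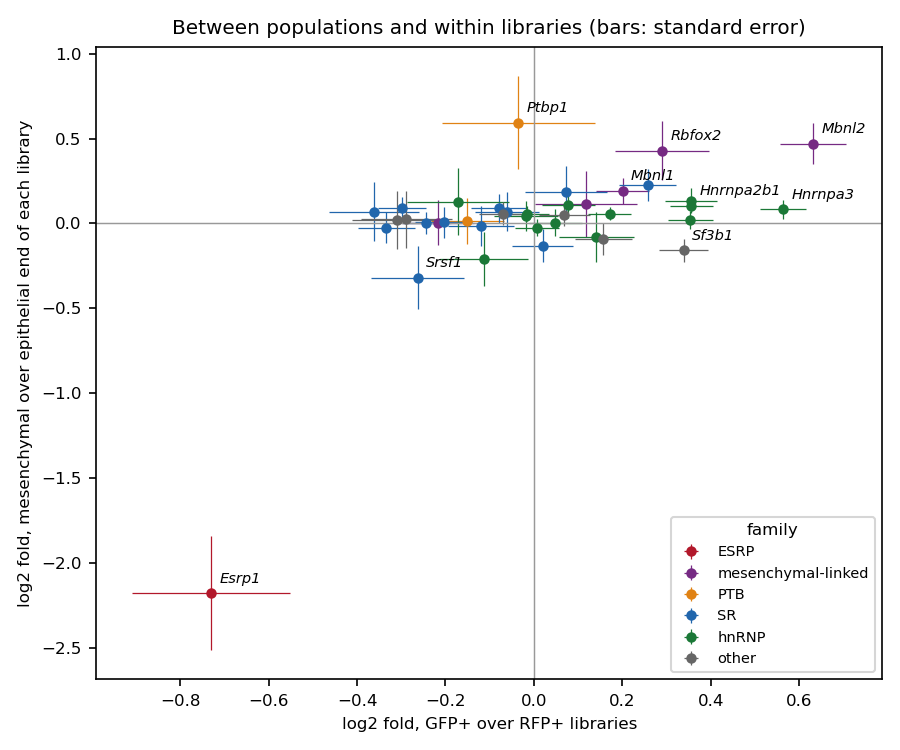
Log2 fold between the populations (x axis) against log2 fold between the mesenchymal and epithelial ends within libraries (y axis) for 39 regulators, coloured by family, with SE bars. Esrp1 stands at the lower left and Mbnl2 at the upper right, and the SR and hnRNP genes spread along the x axis at y values between −0.32 and 0.23.

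Other splicing genes were read from 3 further lists. Of 74 tested genes of the core spliceosome, 10 were higher in the GFP+-labelled libraries, 16 were lower and 48 were not called, with a median log2 fold of −0.03. These are 13.5% and 21.6% of the 74, beside 15.7% and 14.8% of all genes. In the fit of genes of at least 50 CPM, 66 of the list were tested. Of those, 19.7% were higher and 33.3% lower, beside 24.0% and 23.4% of all genes in that fit. With the offsets 9 of the 74 were higher and 14 lower, and with offsets from median lengths 8 and 18. Snrpc, a U1 snRNP protein that helps it recognise the 5′ splice site, fell most, from 100 and 86.7 to 48.5 and 46.3 CPM (−0.99 ± 0.12, adjusted p = 6.92e-09). Sf3b4 (−0.62 ± 0.12), of the same complex as Sf3b1, and Ddx39b (−0.52 ± 0.10), a helicase that acts with U2AF, also fell, while Cwc22 (0.47 ± 0.11), Snrnp200 (0.46 ± 0.12) and Sart1 (0.45 ± 0.09) rose. Snrnp200 was not called with the offsets (0.29, adjusted p = 0.0633). Of 51 tested genes on a list of other splicing regulators, 10 rose, 3 fell and 38 were not called (median 0.06), or 19.6% and 5.88%, beside 15.7% and 14.8% of all genes. With the offsets for length and GC content 2 of the 51 rose and 10 fell (median −0.04), beside 11.7% and 13.4% of all genes, and with offsets from median lengths 8 rose and 6 fell (median 0.03), beside 12.2% and 14.2%, so the split between higher and lower depended on which transcript length was used. Hnrnph2, a relative of Hnrnph1, rose from 73.0 and 65.9 to 108 and 114 CPM (0.66 ± 0.10, adjusted p = 1.9e-06), while Hnrnph1 itself was not called (0.08 ± 0.06). Hnrnpul2 (0.45 ± 0.08) and the SR protein kinase Srpk2 (0.43 ± 0.12) rose, and Elavl1 (−0.32 ± 0.09), Luc7l (−0.29 ± 0.07) and Pcbp1 (−0.28 ± 0.07) fell. Srpk2 (0.22, adjusted p = 0.158) and Pcbp1 (−0.12, adjusted p = 0.18) were not called with the offsets. Along the axis within libraries, 0 of the 74 and 0 of the 51 genes were called by edgeR, with 1 of each at an unadjusted p under 0.05.

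Genes whose exons ESRP proteins are known to regulate were the last list, and only their total level could be read. Of 9 tested, 2 rose (Slk 0.28 ± 0.07 and Ctnnd1 0.28 ± 0.09), 2 fell (Exoc7, −0.30 ± 0.11, and Enah, which had under 20 CPM and is named because the count is small, −0.96 ± 0.26) and 5 were not called. These are 22.2% each way, beside 15.7% and 14.8% of all genes. With either kind of offsets 0 rose and 3 fell, and DESeq2 called 0 of the 9, with 3 at an unadjusted p under 0.05. Cd44, the best known of them, measured 168 and 158 against 155 and 134 CPM (−0.19 ± 0.08, adjusted p = 0.072; −0.38, adjusted p = 5.86e-05 with the offsets) and was named as the best known, outside the rule for named genes. None of the 9 was called along the axis by edgeR, and 0 had an unadjusted p under 0.05.

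Promoter sequences of RefSeq (GRCm38.p6, 250 bases before to 50 after the start) matched 34 of the 40 regulators. Esrp1, Esrp2, Rbfox2, Ptbp3, Khdrbs1 and U2af2 had no sequence there and were not searched. The E-box CAGGTG, or CACCTG on the other strand, which SNAI and ZEB repressors are known to bind, was found in 4 of the 34 (11.8%), Srsf1, Srsf2, Srsf3 and Hnrnpf, and in 22.6% of all 27025 genes of that table. The letters alone do not show binding.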

How the data were processed

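The values deposited by the authors are raw counts of genes by cell barcodes, with the 2 lanes of each library pooled. The submitters' processing notes name the GRCm38 build. The aligner and the counting tool are not given in the sources used for this text. Cells were kept from 500 counts up, if less than 20% of counts were mitochondrially encoded (7390 of 7400). Counts were summed per library and tested with edgeR 4.0.16 (TMM, quasi-likelihood F test, Benjamini-Hochberg) on genes that reached 10 CPM in 1 of the populations and 20 counts over all libraries, with DESeq2 1.42.0 as an alternative. SE is the log2 fold divided by the square root of F, and intervals are 1.96 SE. For the axis within libraries, cells were thinned to 1000 counts (cells below that left out: 453 and 574 of the libraries labelled RFP+, 178 and 565 of those labelled GFP+), ranked with a pseudocount of 0.5, and axis genes were left out of the test. CPM of whole libraries are of raw library totals. Within libraries, regulator CPM of the ends and middle parts are of the thinned counts of that part without the axis genes. Summed epithelial and G2/M CPM of the ends are of all thinned counts of that part. Lengths, GC content and positions are of GENCODE M21. Near-identical copies (95% identity over 300 bases) were sought among the GENCODE M21 transcripts, not the genome, with BLAST 2.17.0. The fits were tested on simulated data. Doublets were not called. Pairs of libraries of 1 population differed by more than sampling noise (chi-square per degree of freedom 1.36 and 1.41).

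The 40 genes and all lists were chosen with earlier results of these data known. Values are given for all ESRP, PTB and mesenchymal-linked genes, for the 3 largest called changes per direction of each other family, and for at most 3 per direction of the other lists among genes of at least 20 CPM.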

Additional observations from a re-analysis of the deposited data

How the results depend on the processing

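Each comparison was recomputed under 13 alternatives. Between the populations, 8 of the 19 called regulators (Mbnl2, Srsf2, Srsf3, Srsf7, Hnrnpa1, Hnrnpa2b1, Hnrnpa3, Hnrnpm) kept their call in all 13. DESeq2 called 6 regulators higher and 3 lower (364 and 370 of all genes, against 1189 and 1126), and cells thinned to 1000 counts gave 737 and 727 of all genes. With offsets for length and GC content 6 regulators were higher. Hnrnpu reversed to −0.074 with those offsets and to −0.13 with offsets from median lengths. Leaving out each library in turn gave 8 to 9 regulators higher and 5 to 8 lower, the fewest lower without library 1 labelled GFP+, and 871 to 923 and 797 to 920 of all genes. Of the uncalled regulators, 11 changed sign in at least 1 alternative. No paired analysis was possible because the table's columns share fewer than 2 replicate numbers between the populations.

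Along the axis within libraries, Esrp1 kept its call in the 12 of these 13 alternatives that tested it. In fits of 1 population, chosen after seeing the data, it was called in the RFP+ libraries alone but lost its call in the GFP+ libraries alone (adjusted p = 0.0984), which called 0 regulators lower, and the RFP+ libraries alone called 0 higher. The test of the difference between the populations gave an adjusted p = 0.902 for Esrp1 in edgeR. With no replicate block, edgeR called 0 regulators higher (4 and 15 of all genes higher and lower, against 87 and 104). DESeq2 called 0 higher (10 and 15 of all genes). The mesenchymal list alone gave 0 higher and 2 lower (Esrp1, Hnrnpab), and the epithelial list alone 52 of all genes higher. At 50 CPM Esrp1 was not tested and 0 were lower, and offsets for length and GC content gave 2 higher (Mbnl2, Hnrnpa2b1). Leaving out each library in turn gave 0 to 2 regulators higher and 1 lower, with 47 to 70 and 61 to 81 of all genes, and without either library labelled GFP+ Mbnl2 lost its call. Of the uncalled regulators, 23 changed sign in at least 1 alternative. Without thinning, the share of cells with Esrp1 or Mbnl2 moved up beyond its interval in all 4 libraries, Mbnl2 to 17.2%, 17.6%, 27.2% and 24.3%. Counts of 3 to 27 per end limit what can be said of Esrp1, and Esrp2 was too low to test.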
